A study of Homo sapiens with 34 samples.

Results

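The regions described here are places where RNA polymerase II (Pol II) was detected on the DNA of DLD1 cells with and without a block of Wnt signalling at its last step. They are the rows of 2 deposited peak lists on chromosomes 1 to 22 and X, with rows of the same start and end collapsed to 1 region. The uninduced list held 57247 regions and the induced list 50665, together 107912 of the 265904 regions in the 4 lists of the study's ChIP-seq, which also covers the histone mark H3K27ac. DLD1 is a human colorectal adenocarcinoma line, and these DLD1 (DNTCF) cells carry a Tet-inducible dominant negative TCF7L2 transgene in both groups. TCF7L2 is the DNA-binding partner of β-catenin at genes switched on by Wnt signals, and its dominant negative form occupies the same sites without β-catenin. One group had no treatment, and the other had 1 µg/mL doxycycline for 24 h. The medium of both groups held zeocin and blasticidin. No group without the transgene was given doxycycline, so doxycycline and the dominant negative protein cannot be told apart. Whether the line is 1 clone is not given in the labels, nor which form of Pol II the antibody binds.

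Each condition had 2 samples, but 1 peak list serves both of them. No spread between samples could be measured, no difference below has a replicate check, and no p-value is given. Intervals on shares (Wilson, or Newcombe for a difference of shares) and on medians (binomial order statistics) are 95% intervals and cover counting error only. Of 15 epithelial marker genes, among them EPCAM, CDH1, KRT8 and CDX2, 15 had a Pol II region in or within 1 kb of the gene in both lists. Of 20 marker genes of immune, stromal and endothelial cells, 11 had one in both lists, among them PTPRC, CD3E, CD14, CD68, COL1A1, PECAM1 and VWF. The 9 with none included COL1A2, COL3A1, LYZ, DCN and KDR. Of all 19974 protein-coding genes, 14604 had a region without induction and 14282 with it. Depth is stated in the labels only as 40 to 55M reads per sample. At a like fold enrichment, the induced list had lower −log10 q values: the median was 98.0 against 123 for regions with a fold from 16 to 20, and 7.68 against 8.998 for a fold from 4 to 5. The part of depth or antibody efficiency in the differences below was not tested.

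Pol II initiates at a gene's start, and in animal cells it often halts a short way downstream, held by NELF and DSIF, until the kinase P-TEFb releases it into the gene. Elongating polymerase is spread thinly over the gene body, and it slows again around the cleavage and polyadenylation site before it leaves the DNA. A ChIP-seq peak list therefore tends to show strong regions at starts and weak or broken ones in bodies and past gene ends. Pol II is also found at active enhancers outside genes.

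The sequences around 6 gene starts show the places that the summits below are measured from. SP5, RNF43 and TCF7L2 are genes of the Wnt pathway whose start summit stayed in place, GUCA2A encodes the colonocyte hormone guanylin, and CHRNA10 and CAPN9 had a region at the start in 1 list alone. They are RefSeq promoter sequences on GRCh38.p14, each of 120 bases before and 30 bases after the gene's start, 5′ to 3′ on the gene's strand. Capitals mark the first 30 transcribed bases.
SP5: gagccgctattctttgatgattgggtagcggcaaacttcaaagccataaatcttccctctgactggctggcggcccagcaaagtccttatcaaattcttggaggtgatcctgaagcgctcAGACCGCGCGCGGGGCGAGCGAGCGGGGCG
RNF43: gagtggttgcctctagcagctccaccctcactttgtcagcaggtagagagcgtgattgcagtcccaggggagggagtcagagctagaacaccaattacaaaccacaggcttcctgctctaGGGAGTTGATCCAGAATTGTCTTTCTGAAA
TCF7L2: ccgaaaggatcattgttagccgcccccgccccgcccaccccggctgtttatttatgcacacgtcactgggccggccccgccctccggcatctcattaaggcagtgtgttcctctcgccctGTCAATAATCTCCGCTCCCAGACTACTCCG
GUCA2A: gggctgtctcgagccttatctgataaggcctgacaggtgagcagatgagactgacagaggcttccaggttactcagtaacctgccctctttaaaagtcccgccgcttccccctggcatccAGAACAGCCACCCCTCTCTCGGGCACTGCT
CHRNA10: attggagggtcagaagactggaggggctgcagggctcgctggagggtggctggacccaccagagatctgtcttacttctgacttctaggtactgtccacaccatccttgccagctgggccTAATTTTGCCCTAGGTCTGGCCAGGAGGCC
CAPN9: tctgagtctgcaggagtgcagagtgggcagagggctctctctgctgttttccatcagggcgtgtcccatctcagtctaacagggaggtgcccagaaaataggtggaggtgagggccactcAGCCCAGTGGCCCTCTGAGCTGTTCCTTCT

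The SP5 stretch lies at chr2:170715217-170715366 (plus strand), RNF43 at chr17:58417505-58417654 (minus), TCF7L2 at chr10:112950127-112950276 (plus), GUCA2A at chr1:42164716-42164865 (minus), CHRNA10 at chr11:3671355-3671504 (minus) and CAPN9 at chr1:230747268-230747417 (plus). The letters CTTTGA, the core of the TCF recognition motif, were searched on both strands in the 300 bases from 250 before to 50 after each start. The SP5 promoter held them at -109 and, as the reverse complement TCAAAG, at -83 bp from the start, and the GUCA2A promoter held them outside the stretch printed. CTTTGA was present in 11.1% of all 13792 protein-coding promoters matched, and in 8.44% of the 7795 whose start zone was covered in both Pol II lists. A match is a string of letters and not a measured binding site.

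Pol II regions were fewer after induction in gene bodies and outside genes, and about as many at gene ends. A region was placed by its strongest summit: within 1 kb of a protein-coding gene's start, else within 1 kb of its end, else in the body, else outside. There were 8582 regions at starts without induction and 8658 with it. At gene ends the counts were 2890 and 2840, and 2364 and 2361 regions lay at an end of a gene whose strand was not known. Gene bodies held 21076 regions without induction and 17889 with it, and 22335 and 18917 lay outside protein-coding genes. The 3 classes at gene ends thus held 23 more regions in all with induction. The whole shortfall of the induced list lay in bodies (a difference of -3187) and outside (-3418).

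As shares of the list, regions at starts made up 15.0% (14.7 to 15.3) without induction and 17.1% (16.8 to 17.4) with it. The share of all gene-end classes was 24.2% and 27.4%, a difference of 3.19 percentage points (2.66 to 3.71). The body share differed by -1.51 points (-2.08 to -0.933) and the share outside genes by -1.68 points (-2.26 to -1.097), both lower in the induced list. With an equal number of regions, these differences shrank. Among the 20000 strongest of each list by −log10 q, the gene-end share differed by 0.930 points (-0.0496 to 1.91) and the share outside by -0.675 points (-1.54 to 0.187), so that both intervals held 0. In that set the class at gene ends proper (not starts) was the 1 whose interval lay above 0, with 666 regions without induction and 765 with it, 0.495 points more (0.131 to 0.860). Among the 10000 strongest this class differed by 0.130 points (-0.227 to 0.488), an interval that held 0. At a −log10 q of at least 5 its share was 0.497 points higher with induction (0.184 to 0.813), while its count was lower (1665 and 1580).

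**Figure D1:**
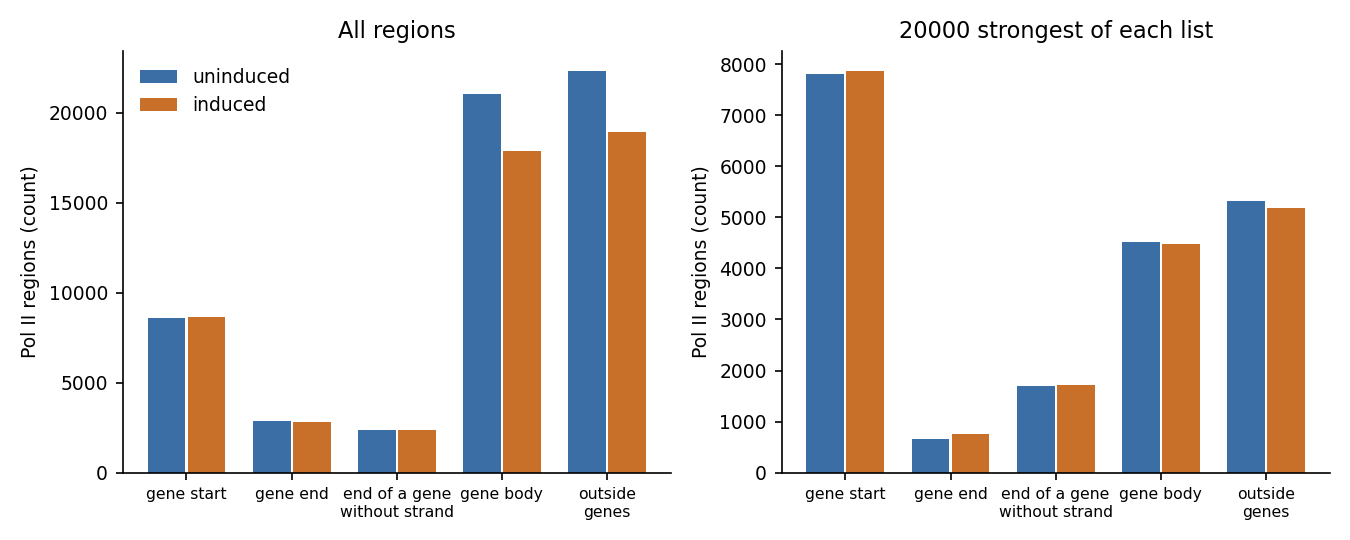
Number of Pol II regions by place (x axis) in the uninduced (blue) and induced (orange) lists, for all regions (left) and for the 20000 strongest of each list (right). Bars at gene starts are nearly level, with 8582 and 8658 in all regions, and ends number 666 and 765 among the 20000 strongest, while the induced bars for bodies and outside genes are lower, by far more on the left than among the 20000 strongest.

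The strength of a region went with its place. In each list 81% of the 5000 strongest regions lay at a gene end of some class (81.1% and 81.2%), and 66.8% and 66.4% lay at a start. Between ranks 20001 and 30000 the gene-end share was 10.8% without induction and 12.2% with it, and bodies and the space outside genes made up the rest. Start regions had a median fold of 24.8 and 23.6, against 3.64 and 3.81 for body regions and 3.90 and 3.97 for regions outside genes. H3K27ac, the acetylation mark of active promoters and enhancers, overlapped 95.8% and 96.2% of start regions, 55.5% and 54.1% of body regions and 58.9% and 58.1% of those outside. It overlapped 24.4% and 24.96% of the regions at ends, a class that leaves out starts and ends of genes without a known strand.

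Regions outside protein-coding genes were near them. The median distance to the nearest end of a protein-coding gene was 10.5 kb without induction and 9.17 kb with it. Of these regions, 32.7% (32.1 to 33.3) and 33.4% (32.7 to 34.1) had their strongest summit in or within 1 kb of a non-coding gene or pseudogene. Most of these were lncRNA genes (26.2% and 26.4%). Genes of small RNAs did not share the lower count of the induced list. In or within 1 kb of a tRNA gene lay the summits of 143 and 153 regions. For snRNA genes the counts were 46 and 46, and for snoRNA genes 35 and 37. snRNA genes are mostly Pol II genes, while tRNA genes are transcribed by Pol III. The counts here are of Pol II regions with a summit over them or within 1 kb.

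The median width of Pol II regions was lower after induction in every class of place and in every band of ranks compared. The median width was 733 bp without induction and 678 bp with it, a ratio of 0.925 (0.906 to 0.944). At starts it was 1567.5 bp and 1442 bp, at gene ends 771 bp and 684.5 bp, in bodies 597.5 bp and 534 bp, and outside genes 613 bp and 552 bp. The 5000 strongest regions had a median of 1979 bp and 1829.5 bp, and those ranked 20001 to 30000 one of 802 bp and 654 bp. The lists also differed in their narrowest regions. From 200 to under 251 bp the induced list held 33 at starts, 605 in bodies and 577 outside genes, and the uninduced list 0 of each. The part of this lower floor in the widths, and in the edges of pairs below, was not tested. Long regions differed most: 1697 regions of 5 kb or more without induction against 1076 with it, and 342 against 173 of 10 kb or more. In all the regions covered 70.9 Mb without induction and 56.7 Mb with it.

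The widest region of either list was the same place. It covered 63.7 kb of the HOXB cluster on chromosome 17 (chr17:48584969-48648667 without induction), from HOXB3 to HOXB9, genes that give the body axis its identity, and it was 63.8 kb wide with induction. The next was a 40.4 kb region in both lists (chr1:228608215-228648650 and chr1:228608238-228648646) beside RHOU, where RefSeq annotates repeated 5S rRNA genes. A 35.8 kb region in both lists lay over MIRLET7BHG, the host gene of let-7 microRNAs on chromosome 22. The uninduced list also held a 35.6 kb region from PNPLA2 to TSPAN4 on chromosome 11 that overlapped 2 induced regions. The induced list held a 38.2 kb region over NEAT1, the lncRNA that builds paraspeckles, which overlapped 2 uninduced regions. Very wide regions were therefore present in both conditions.

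Wide regions were often broken in the induced list. Of the 57247 uninduced regions, 39838 (69.6%) overlapped an induced region by at least 1 bp, and of the 50665 induced ones 45214 (89.2%) overlapped an uninduced region. Regions at starts nearly always had such a partner (96.6% of uninduced and 98.8% of induced ones), and body regions less so (61.1% and 85.4%). Of the uninduced regions with a partner, 6044 overlapped 2 or more induced regions, which is 15.2% (14.8 to 15.5). The reverse, an induced region over 2 or more uninduced ones, held for 2615 regions or 5.78% (5.57 to 6.003). With each list held to its 20000 strongest regions the shares were 3.57% and 0.854%, and with regions under 500 bp apart merged 7.43% and 1.66%. Splitting went with width. Below 1 kb the shares were 3.69% and 3.59%, with overlapping intervals. From 4 to 8 kb they were 61.0% (58.8 to 63.1) and 17.5% (15.6 to 19.6), and at 8 kb or more 75.9% (72.3 to 79.1) and 22.2% (18.1 to 26.99).

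**Figure D2:**
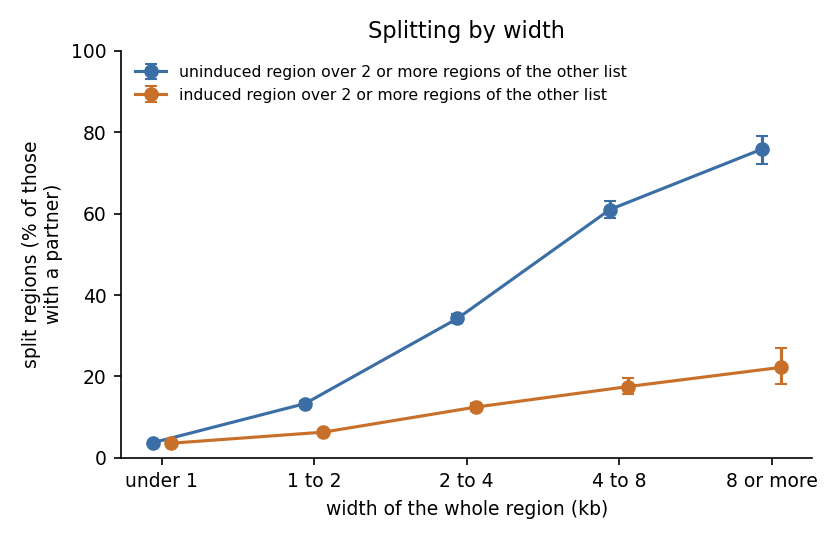
Share of regions with a partner that overlap 2 or more regions of the other list (y axis, percent), by the width of the whole region (x axis, kb), for uninduced regions (blue) and induced regions (orange). Bars are Wilson 95% intervals; the curves start together at 3.69% and 3.59% and end at 75.9% and 22.2%.

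The breaks were short. The 8150 gaps between induced pieces of 1 uninduced region had a median of 193 bp (quartiles 117 and 310), and the 2774 gaps of the reverse case one of 148 bp (102 and 233). Splitting also went with place: 26.8% of uninduced regions at gene ends with a partner were split, 16.5% of those in bodies, 14.5% of those outside and 11.5% of those at starts. In the reverse direction these shares were 10.7%, 6.44%, 5.65% and 3.72%. Summits were denser in the induced list, with 1.67 per covered kb against 1.53.

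The regions with the largest number of pieces were long, from 8.98 to 13.2 kb. A 12.9 kb uninduced region in DAGLB, a lipase that makes the endocannabinoid 2-AG (chr7:6404626-6417490, 24 summits, highest fold 6.98), met 11 induced regions of 264 to 3762 bp that covered 86.2% of it. A 12.4 kb region whose strongest summit lay 1.90 kb from GALM, the gene of galactose mutarotase (chr2:38728282-38740696), met 8 pieces that covered 64.2%. The 8.98 kb region over the ends of RBM4 and RBM4B, neighbouring genes of splicing regulators (chr11:66664859-66673842), met 8 pieces covering 81.0%. A 13.2 kb region beside TP53AIP1, a p53 target (chr11:128936116-128949300), also met 8, covering 82.8%. The pieces thus covered 64.2% to 86.2% of these regions.

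In the other direction, the induced region with most uninduced partners (5) lay over the start of RER1, a protein of Golgi-to-ER retrieval (chr1:2387766-2396171, 8.41 kb). A 4.83 kb induced region where TTC19 and NCOR1 overlap (chr17:16042306-16047139) also met 5. A 29.1 kb induced region over the histone genes H3C14, H2AC18, H4C15, H2AC19 and H3C15 (chr1:149835231-149864361, fold 66.6) met 4. So did a 5.53 kb induced region in HDGF, a growth factor gene (chr1:156747704-156753230). Joined regions thus existed too, with fewer pieces each.

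In the H3K27ac lists of the same cells, the covered length and the width of paired regions differed less between conditions, but the median width of all regions did not: it was 1159 bp and 1040 bp, beside 733 bp and 678 bp for Pol II. H3K27ac regions covered 0.971 times as much with induction as without, against 0.800 times for Pol II. In H3K27ac regions paired 1 to 1 the median width ratio was 0.991 and 53.0% were narrower with induction, against 0.884 and 75.1% for Pol II. Splitting of uninduced H3K27ac regions was 10.5% (10.2 to 10.7), and of induced ones 5.795% (5.62 to 5.97). The marks were not compared with a test, since each has 1 list per condition.

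Pol II summits stayed where they were at gene starts. In 30226 pairs that overlapped each other and nothing else, the strongest summits lay a median of 39 bp apart (39 to 40), and 72.0% were within 100 bp. At starts (6988 pairs) the median was 17 bp (16 to 17) with 91.0% within 100 bp. It was 58 bp in bodies, 55 bp outside genes and 115 bp (105 to 124) at gene ends, where 46.0% were within 100 bp. Among pairs with a single summit in each list the medians were 16 bp at starts and 88 bp at gene ends. The summit was thus less fixed at gene ends than at starts. The paired regions at gene ends were also narrower, with a median of 1027 bp and 800 bp against 1504 bp and 1400 bp at starts. Over all regions, those at gene ends were far weaker too. Their median −log10 q was 6.51 without induction and 5.998 with it, against 206 and 149 at starts. The part of width and strength in the summit distances was not tested.

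Relative to the start itself, the strongest summit lay a median of 43 bp downstream without induction (41 to 45) and 47 bp with it (45 to 49). Between 0 and 150 bp downstream of a start lay 50.5% and 50.8% of the start summits, the stretch where promoter-proximal Pol II halts, and 32.7% and 31.6% lay upstream. Both edges of start pairs were drawn in by like amounts. The upstream edge lay a median of 46 bp further downstream (44 to 49) and the downstream edge 41 bp further upstream (shift of -41, -44 to -38), while the summit moved 1 bp (0 to 1). At gene ends the edges moved 82 and -72 bp. The median width ratio of pairs was 0.934 at starts, 0.868 at gene ends and 0.849 in bodies and outside genes.

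**Figure D3:**
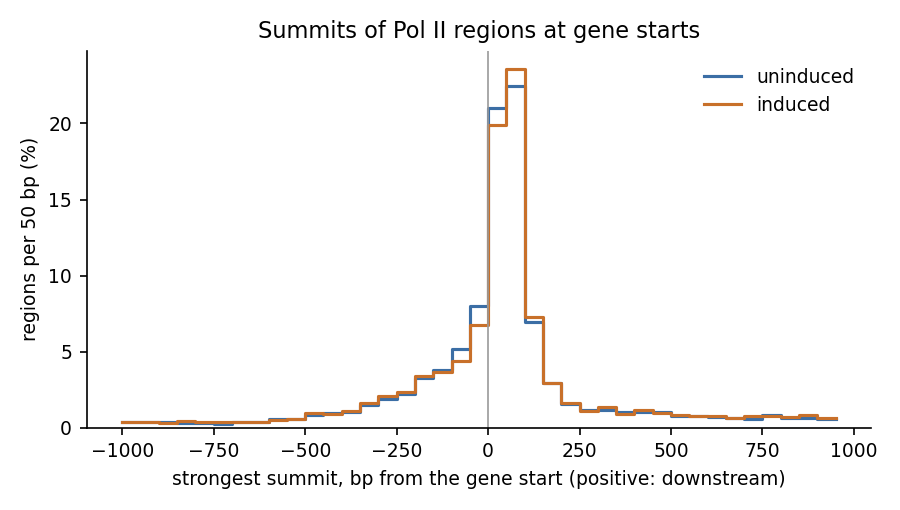
Position of the strongest summit of each start region relative to the gene's start (x axis, bp, positive downstream), as percent of start regions per 50 bp (y axis), for the uninduced (blue) and induced (orange) lists. The curves nearly coincide, with medians 43 and 47 bp downstream of the start.

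The largest moves were changes of which of several neighbouring summits was strongest. Among the 5000 strongest uninduced regions, the farthest moved was a 17.03 kb region over WDR6, DALRD3, NDUFAF3, IMPDH2 and QRICH1 (chr3:49013208-49030241). Its strongest summit was at IMPDH2, the rate-limiting enzyme of guanine nucleotide synthesis, without induction and at DALRD3 with it, 10990 bp away, at a fold of 60.8 and 59.7. In the 9.02 kb region over MCRIP2 and WDR90 the distance was 6417 bp. In the region over HSD17B8 and RING1, a Polycomb subunit, it was 3734 bp, with the strongest summit in HSD17B8 without and in RING1 with induction. At ZFP36, which encodes the mRNA decay factor tristetraprolin, it was 2687 bp. In all 4 the region itself was about as wide in both lists.

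Along genes, the summed length under Pol II regions differed least at the start as a ratio between the lists, and the body and the zone past the end differed most. The 13484 protein-coding genes of 5 kb or longer with a known strand were cut into a start zone (within 1 kb of the start), a body, an end zone (within 1 kb of the end) and a zone from 1 to 5 kb past the end. A zone was scored where at least 1 list covered some of it, and the zone past the end only where no other protein-coding gene overlapped it. Pol II regions covered 12882.6 kb of start zones without induction and 12096.9 kb with it, a ratio of 0.939. The ratio was 0.846 in end zones, 0.775 past the end and 0.759 in bodies. The median coverage of a scored start zone was 73.6% and 69.4%, of an end zone 52.7% and 41.1%, and of a zone past the end 32.4% and 21.8%. At a −log10 q of at least 5 the ratio was 0.738 past the end and 0.744 in the body. By the median difference per gene the body differed least, with -0.69 points against -3.05 at the start, -5.25 at the end and -7.45 past it.

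**Figure D4:**
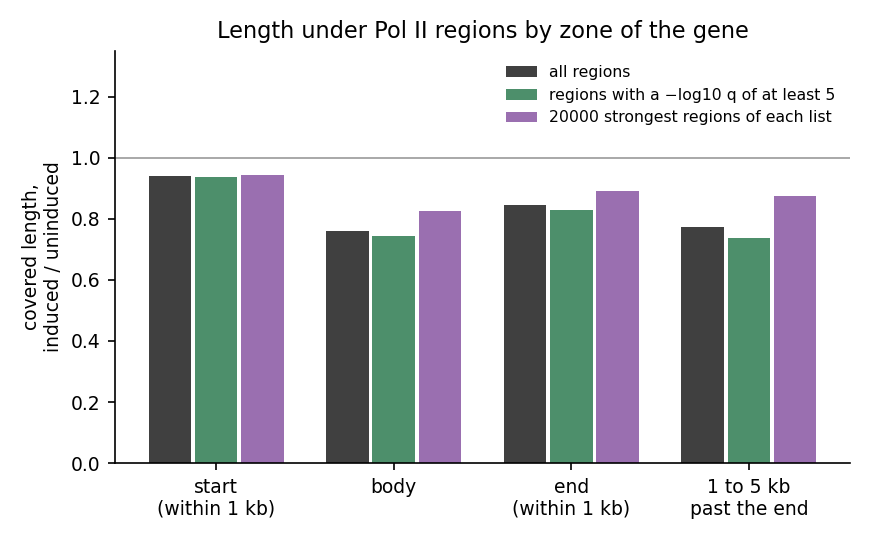
Length covered by Pol II regions with induction divided by that without (y axis), by zone of the gene (x axis), for all regions (dark), regions with a −log10 q of at least 5 (green) and the 20000 strongest regions of each list (purple). All bars lie below 1, and the start zone is nearest to it, at 0.939, 0.938 and 0.943.

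The order of start, end and body held among the 20000 strongest regions of each list (0.943, 0.891 and 0.826), where the zone past the end had a ratio of 0.876. It also held in genes of each length. From short genes (5 to 20 kb) to long ones (60 kb and more), the ratio in bodies went from 0.807 to 0.718 and in end zones from 0.872 to 0.773, while in start zones it was 0.941 and 0.937. Within bodies, the summits were spread alike: the median summit lay 53.8% along the gene without induction and 54.2% with it, and the last 20% of the body held 25.5% and 26.2%.

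A zone was called lower or higher where its coverage differed by over 25 percentage points. Of 9019 start zones scored, 232 were lower with induction (2.57%) and 21 higher (0.233%). Of 8002 bodies, 84 were lower (1.05%) and 1 higher (0.0125%). Of 4722 end zones, 653 were lower (13.8%) and 58 higher (1.23%). Of 3081 zones past the end, 346 were lower (11.2%) and 9 higher (0.292%). These are the shares over all genes against which the genes below are read. Pol II regions carry no strand, so where another gene overlaps or adjoins a zone, the gene a region belongs to cannot be told apart. Among the genes named at starts below, FAAP20 overlaps PRKCZ, MRPS18A overlaps RSPH9 and PLCD3 overlaps ACBD4. In genes with a long body, a difference of 25 points is a larger length there than in the other zones. Of the 84 bodies called lower, 81 were in genes of 5 to 20 kb.

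Genes with Pol II at the start alone were more numerous after induction. Of the 13484 genes, 2086 had a covered start and neither body nor end without induction, and 2496 with it. Genes covered at start, body and end numbered 3245 and 2808. The start was covered in both lists in 8831 genes, in the uninduced list alone in 156 and in the induced list alone in 32. Of those 8831, the end zone was covered in the uninduced list alone in 566 (14.3% of the uninduced ends) and in the induced list alone in 166 (4.67% of the induced ends). For the body these counts were 662 and 203. For the zone past the end, here counted also where another gene overlaps it, they were 655 and 180.

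Promoters with Pol II in both lists were rich in GC. The 7795 matched promoters of genes whose start zone was covered in both lists had a median GC content of 65.7% and 27 CpG in 300 bases, against 55.3% and 7 CpG in the 3586 covered in neither. The letters TATAAA, the TATA box, were found on either strand in 4.71% of the first set, 14.5% of the second and 10.0% of all protein-coding promoters. Among the 11523 promoters of genes of 5 kb or longer, from which these sets were drawn, the share was 7.83%, and CTTTGA was found in 10.8%. The 186 matched promoters of start zones lower by over 25 points had 64.2% GC, and TATAAA in 8.06% and CTTTGA in 8.60% of them. The 17 promoters of start zones higher by over 25 points held TATAAA in 2 cases and CTTTGA in 0.

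At starts, the largest lower value was CHRNA10, a nicotinic acetylcholine receptor subunit (chr11:3665587-3671384). Its start zone was 89.0% covered without induction, with a summit at -54 bp and a fold of 4.71, and had no region with induction. PRKCZ, an atypical protein kinase C (chr1:2048504-2185395), went from 100% to 17.7%. Without induction a 4.07 kb region (chr1:2047071-2051137, fold 18.1) lay over its start. With induction a 2.00 kb region (chr1:2049151-2051146, fold 19.8) had nearly the same downstream edge, and the upstream part was not listed. RSPH9, a radial spoke protein of cilia, had 87.8% and 8.55%, and TLR3, the endosomal sensor of double-stranded RNA, 95.3% and 30.1%. At TLR3 the fold of the start region was 10.2 and 3.49.

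Higher values at starts were smaller. ACBD4, an acyl-CoA binding protein, had 46.4% without induction and 88.9% with it, but 46.4% and 52.8% among regions with a −log10 q of at least 5. CAPN9, a calpain of the digestive tract, had no region at its start without induction and 38.2% with it, from a 0.764 kb region with its summit at -374 bp and a fold of 4.38. BRAP, a binding partner of BRCA1, had 60.1% and 96.0%, and the fold of its start region was 16.1 and 37.9. ZNF320, a zinc finger gene, had 40.4% and 75.4%. Its difference turned to the other side among regions with a −log10 q of at least 5 (40.4% and 18.4%), so no direction is given for it.

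In bodies, the largest lower values were in short genes with much of the body covered without induction. The body of NSMF, a synapse-to-nucleus messenger, was 92.9% covered without induction and 23.02% with it. RRP36, a ribosome biogenesis factor, had 69.9% and 16.5%, and PTRH2, a mitochondrial peptidyl-tRNA hydrolase, 93.1% and 42.8%. EIF4A1, the RNA helicase that unwinds mRNA for translation, had 84.2% and 35.9%. At all 4 the strong region at the start was listed in both conditions: at EIF4A1 its fold was 48.4 and 52.0, and at RRP36 16.1 and 40.8. The single body called higher was that of TMEM238, with 0% and 32.8%, of which 3.05% was left among regions with a −log10 q of at least 5. CDPF1 (23.3% and 47.5%), FAM136A (7.21% and 30.3%) and FAAP24 (17.1% and 39.8%) lay under the 25 points.

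At gene ends, CERS5, a ceramide synthase, had 91.2% of its end zone covered without induction and 8.80% with it. PSIP1, a chromatin reader that tethers HIV integrase, had 74.8% and 0%, and ABCB6, a porphyrin transporter, 74.2% and 0%. SNAPC3 overlaps PSIP1, and ZFAND2B and ATG9A lie within 5 kb of ABCB6, so these end zones cannot be assigned to 1 gene with certainty. FOSL2, an AP-1 subunit, had 93.6% and 20.1%: an 8.07 kb uninduced region at its end (chr2:28417264-28425337, 14 summits) met 4 induced regions. Past the end, ACAA2, a thiolase of fatty acid oxidation, had 93.9% and 22.7%, and PSMG2, a proteasome assembly chaperone, 100% and 29.1%. ZNF169 had 90.8% and 25.8%, and METTL13, which methylates the elongation factor eEF1A, 72.6% and 9.35%. All 8 of these zones kept a lower value among regions with a −log10 q of at least 5. Among the 20000 strongest regions, FOSL2 (52.7% and 0%) and PSMG2 (100% and 13.2%) were still lower, and the other 6 zones were covered in neither list.

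TSPAN1, a tetraspanin of gut epithelium (chr1:46175087-46196489), was the largest higher value at an end, with 0% without induction and 95.3% with it. A 3.41 kb induced region (chr1:46195604-46199015, fold 30.5, 7 summits) spanned its end, where the uninduced list held a 1.87 kb region that began past the end zone (chr1:46197690-46199554, fold 34.0, 1 summit). The body was 56.8% covered without induction and 66.5% with it. POMGNT1, on the other strand, overlaps this end, and Pol II regions carry no strand, so which gene the region belongs to cannot be told apart. PRRC2B had 15.0% and 67.8% at its end. BMP8B (0% and 50.8%) and THAP8 (0.800% and 45.8%) had no covered end zone in either list among regions with a −log10 q of at least 5. PPIE and OXCT2 overlap BMP8B.

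Past the end, the higher values were ACBD3 (0% and 37.4%), a Golgi adaptor protein, BCL3 (22.1% and 58.7%), an NF-κB cofactor, CFAP65 (23.9% and 57.4%) and ZNF267 (14.0% and 45.0%). ACBD3 had 0% in both lists at a −log10 q of at least 5. ZNF267 then had 6.40% without induction and 0% with it. BCL3 (0% and 49.3%) and CFAP65 (14.3% and 44.2%) kept a higher value.

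The Wnt target genes AXIN2, NKD1 and RNF43 had a strong Pol II region at or near at least 1 gene end in both lists, with lower coverage of the gene after induction. AXIN2, the scaffold of the β-catenin destruction complex and a feedback target of Wnt signalling (chr17:65528563-65561648), was 92.0% covered without induction, by 9 regions with 59 summits, and 68.7% covered with it, by 13 regions with 52 summits. Its upper end had a fold of 24.6 without induction and 26.7 with it, with the strongest summit at 65561034 and 65561037. At its lower end a 14068 bp uninduced region (chr17:65521573-65535640, fold 37.4, 20 summits) met 4 induced regions, the strongest of 6421 bp with a fold of 27.3. In the upper middle of the gene, a 6086 bp uninduced region (chr17:65548226-65554311) met 5 induced regions of 305 to 755 bp. In the lower part of the gene, a 5043 bp uninduced region (chr17:65535728-65540770, fold 9.15) met a wider induced region of 5336 bp (fold 10.4).

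NKD1, an inhibitor of Dishevelled and a Wnt feedback gene (chr16:50548396-50649249), was 13.5% covered without induction (9 regions, 23 summits) and 2.81% with it (4 regions, 6 summits). At its lower end the region was in place in both lists, 1545 bp and 1254 bp wide, at a fold of 44.6 and 48.9, with the summits 20 bp apart. Near its upper end a 7466 bp uninduced region (chr16:50637620-50645085, 12 summits, fold 6.08) met a single induced region of 269 bp with a fold of 3.36. The 3 further uninduced regions above it had no partner. NKD1 thus had a region at its lower end in both lists and little listed Pol II over the rest of the gene with induction.

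RNF43, a ubiquitin ligase that removes Frizzled receptors (chr17:58352500-58417534), was 49.8% covered by 28 regions without induction and 35.6% by 31 with it. Its start region was 2978 bp and 2947 bp wide, with the strongest summit at +53 and +51 bp from the start printed above and a fold of 20.5 and 23.3. A 6144 bp uninduced region in its body (chr17:58390448-58396591) met 6 induced ones. Its body also held low regions without a partner in each list, so some were listed with induction alone and some without it alone. The strong region at its end (fold 32.7 and 31.5) also covers the start of SUPT4H1, so the 2 genes cannot be told apart there.

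**Figure D5:**
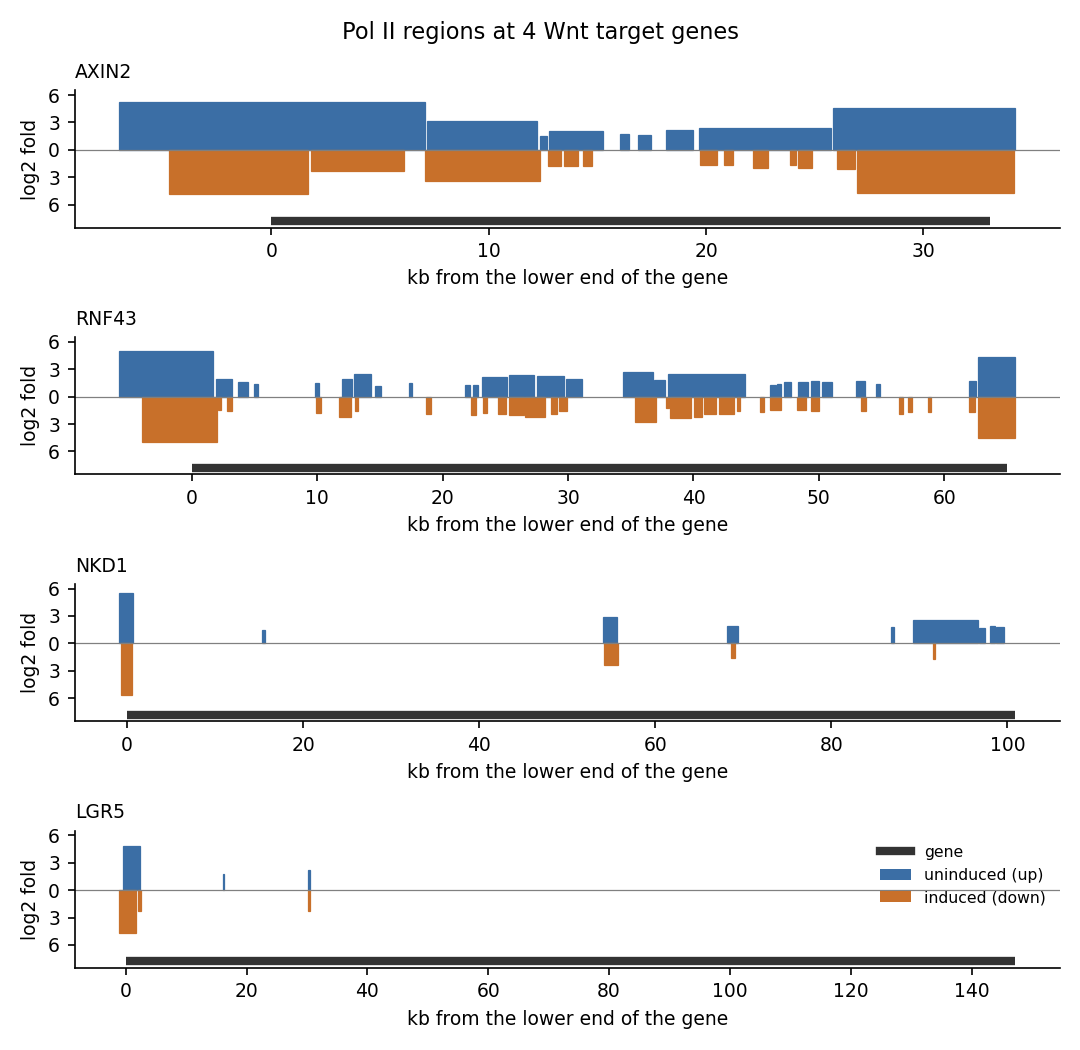
Pol II regions along AXIN2, RNF43, NKD1 and LGR5: x axis, kb from the lower end of the gene; y axis, log2 of the region's highest fold, uninduced regions drawn up (blue) and induced ones down (orange); black bars are the genes. The tall regions at gene ends are in both lists, while the low regions inside AXIN2, RNF43 and NKD1 are shorter, more broken or missing with induction.

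SP5, which encodes a zinc finger factor and is a direct Wnt target, had a start region of 6457 bp without induction and 5541 bp with it. The summit was at +104 and +119 bp and the fold 22.5 and 31.5, while the −log10 q was 219 and 177. A weak 418 bp region near its end (fold 2.22) was listed without induction alone. LGR5, the R-spondin receptor that marks intestinal stem cells (chr12:71439129-71586310), had 3 regions in each list and 2.08% and 1.84% of its length covered. ASCL2, the stem cell transcription factor, was wholly covered by 1 region in each list, 15590 bp wide without induction and 10719 bp with it, and the former met 4 induced regions. The strongest ASCL2 summit was at 2270479 without and 2269138 with induction.

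At TCF7L2 itself (chr10:112950247-113167678), the endogenous gene of the factor that the transgene blocks, 9 regions were listed without induction and 10 with it. They covered 2.21% and 2.74% of the gene. The start summit lay at +104 and +89 bp with a fold of 10.6 and 8.34. The place of the transgene was not known here, so these values do not check its induction. GUCA2A, the gene of guanylin that Wnt-driven colorectal tumours commonly silence, had 1 region reaching its start in each list, 7116 bp and 6310 bp wide. Its strongest summit lay at -2583 and -3388 bp from the start, and the highest fold was 13.9 and 19.6. The strongest summit within 1 kb of the printed start was at +17 bp (fold 4.47) without and at -655 bp (fold 13.0) with induction.

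The 35 Wnt and TCF target genes had coverage differences like those of all genes in direction. A Pol II region was in or within 1 kb of 33 of them without induction and 32 with it. Over all 19974 protein-coding genes these counts were 14604 and 14282. Zones were not scored for AXIN2, NKD1, LGR5 and ASCL2, whose strand was not known, nor for SP5, which is under 5 kb. Of the 18 with strand and 5 kb or more, 17 bodies were scored: 16 were lower with induction and 1 higher, with a median of -2.16 percentage points. Over all genes 6491 of 8002 bodies were lower, with a median of -0.69. Of 15 Wnt start zones and 17 bodies scored, 0 were called, beside 2.57% and 1.05% called lower over all genes. Of 10 end zones, 3 were called lower and 0 higher, beside 13.8% called lower over all genes. The largest body differences were at ETS2, an ETS factor (29.1% and 10.3%), RNF43 (48.2% and 33.6%) and CEMIP, a hyaluronan-degrading protein (18.5% and 8.63%).

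Genes of the transcription machinery had Pol II regions in both conditions. Of 31 pausing and elongation factor genes, 31 had a region in each list, beside 14604 and 14282 of all 19974 protein-coding genes. Of 24 start zones scored, 17 were lower and 5 higher, none by over 25 points, and of 16 bodies 14 were lower, beside 6491 of 8002 over all genes. SUPT4H1, the small subunit of the pausing factor DSIF, was the 1 body called of these 16, with 98.4% and 59.6%. Over all genes 1.05% of bodies were called lower. PAF1, of the elongation complex named after it, had 100% and 87.8%, and the NELF subunit gene NELFCD 27.4% and 20.8%. Among the 12 Pol II subunit genes, POLR2C had 19.2% of its body covered without and 0% with induction, POLR2H 75.3% and 62.6%, and POLR2E 49.1% and 39.4%. Among 20 cleavage and termination factor genes, 1 of 17 start zones, 2 of 10 end zones and 3 of 6 zones past the end were called lower and none higher. Over all genes 2.57%, 13.8% and 11.2% of these zones were called lower. SSU72, a Pol II CTD phosphatase, had 55.0% and 40.5% of its body covered, the cleavage factor gene CPSF4 27.2% and 15.3%, and PCF11, which dismantles elongating Pol II, 37.2% and 30.5%.

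Immediate early, heat shock and housekeeping genes were counted beside all genes, of which 6491 of 8002 bodies were lower. Of the 29 immediate early genes, 8 had a scored body and 8 of these were lower, with a median of -6.44 points: KLF6 33.5% and 23.02%, FOSL2 22.1% and 12.8%, and SRF, the serum response factor, 12.6% and 3.68%. Their 7 start zones were 2 lower, 3 higher and 2 equal. Of 10 heat shock gene bodies, 8 were lower, near the share over all genes, among them HSP90AB1 (59.2% and 45.5%), HSPA9 (19.8% and 9.85%) and HSPA5 (12.6% and 3.99%). In the housekeeping list 7 of 10 bodies were lower. ALDOA, a glycolytic enzyme, had 71.7% and 37.9%, the translation factor gene EEF1A1 85.2% and 63.7%, and GUSB 33.7% and 15.2%. Start zones of ALDOA and EEF1A1 were 100% covered in both lists.

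Colonocyte and epithelial genes went both ways. Of 20 colonocyte differentiation genes, 10 had a region in each list, a lower share than over all protein-coding genes (14604 and 14282 of 19974). The bodies of TSPAN1 (above) and of CDX2, the intestinal master regulator (60.8% and 69.1%), had higher coverage with induction, and that of the brush border cadherin CDHR2 lower (13.9% and 9.70%). ELF3, an epithelial ETS factor, had 68.9% of its start zone covered without induction and 100% with it. It was the 1 called of 5 epithelial marker starts scored, of which 2 were lower, 2 higher and 1 equal. Over all genes 0.233% of start zones were called higher. KRT8 had 29.8% and 26.7% of its body covered. Among the markers of other cells, ACTA2, which overlaps FAS, had 40.8% and 0% of its end zone covered, and the bodies of PDGFRB (4.06% and 2.67%) and PTPRC (1.71% and 1.03%) were little covered.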

How the data were processed

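The 2 Pol II peak lists were used, with the 2 H3K27ac lists for comparison. Chromatin was sheared to 250-300 bp and sequenced as single 75 bp reads, per the labels' protocols. The submitters' processing notes name BWA 0.7.17-r1188, SAMtools 1.10 and MACS2 2.1.1.20160309 and the builds hg19 and hg38, without roles; settings of the caller and pooling of samples: not given in the sources used here. Positions fit GRCh38. For each summit the deposited lists give a fold (a ratio over the caller's background) and a −log10 q among other columns, as the authors' peak caller made them; the deposited −log10 q starts at 1.30. Both rank and describe regions within 1 list; folds printed side by side are each list's own values, with no test between them. All columns used were matched to a group, and 0 others held values per sample.

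Rows of the same start and end were collapsed to 1 region with its strongest summit. Genes were the 19974 protein-coding genes of RefSeq GRCh38.p14; strand came from the promoter table and was known for 15813. Analysis used Python 3.11.15, numpy 2.4.6, pandas 2.3.3 and scipy 1.17.1, and the measures were tested on simulated lists. Members, gene lists and rules were chosen with earlier results of these data known. Named were 8 genes in any case, the 4 largest coverage differences each way per zone, the 4 most split regions each way, the 4 widest regions per list, the 4 largest summit moves among the 5000 strongest, and up to 3 genes per list by body difference. GUCA2A, SP5 and the other promoters were matched by gene ID. Alternatives were a −log10 q of at least 5, the 20000 strongest regions, other windows, overlaps, gene sets and call limits. RNA-seq samples, inputs and signal tracks were not used here.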

Additional observations from a re-analysis of the deposited data

How the results depend on the processing

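No paired analysis was possible because 1 list serves both samples of a condition; leaving out a replicate was not possible for the same reason. Depth per library is not in the files, so what it limits was not measured.

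The gene-end share was 4.99 points higher with induction at a −log10 q of at least 5, 0.930 among the 20000 strongest, 2.39 with ends within 500 bp, and 1.23 with as many of the strongest uninduced regions as the induced list holds. The share outside genes differed by -2.90 and -0.675 points in the first pair of settings. The width ratio was 0.975 at a −log10 q of at least 5, 0.962 with regions under 500 bp apart merged and 0.804 at equal list length.

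Split uninduced regions were 9.02% at a −log10 q of at least 5, 3.57% among the 20000 strongest, 7.43% merged, 12.1% with an overlap of 50% of the shorter and 15.7% at equal length; split induced regions were 3.18%, 0.854%, 1.66%, 2.09% and 4.94%. The median summit distance was 29 bp at a −log10 q of at least 5, 21 bp among the 20000 strongest, 38 bp at equal length, 36 bp with an overlap of 50% of both regions and 41.5 bp by highest fold.

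With a limit of 40 points, start zones were lower in 45 genes and higher in 1, bodies 11 and 0, ends 206 and 5, past the end 80 and 0. Among the 20000 strongest, 54 starts and 15 bodies were higher, ends were 424 lower and 148 higher, and past the end 156 and 84. At a −log10 q of at least 5, 4 bodies and 18 zones past the end were higher; at equal length 6 and 18. In genes of 10 kb or longer 33 bodies were lower and 0 higher. In end zones with no second gene, 423 were lower. Equal length, these end zones and the count of every RefSeq start (3.51 points, near the main value) were added after the data were seen. In each setting run, lower zones outnumbered higher ones in all 4 zones, and uninduced regions were split more often than induced ones.

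Of 32 named zone values, 23 stayed within 1.5 times at a −log10 q of at least 5 and 7 among the 20000 strongest. ZNF320 (-21.99 points) and ZNF267 (-6.40) reversed under the first and CDPF1 (-1.66) under the second. The cause was not tested.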
